A study of Mus musculus with 28 samples.

Results

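The genes described here encode the nuclear subunits of mitochondrial complexes I, III and IV and of the ATP synthase, together with a few complex I assembly factors that carry the same name stem. They were taken by name from the platform annotation, as every gene whose symbol starts with Nduf, Uqcr, Cox4, Cox5, Cox6, Cox7, Cox8 or Atp5 and that has a probe set annotated to that symbol alone. This gave 85 of the 19938 genes on the array. By name stem, complex I holds 43 of them, of which 36 are counted as subunits and 7 are assembly factors named Ndufaf. Complex III holds 8, complex IV 17 and the ATP synthase (complex V) 17. Ndufa4 and its isoform Ndufa4l2 are counted under complex I by name alone, and their place in that complex was not examined. Of the 85, 83 had signal above the array median on at least 3 arrays and were tested; Cox7b2 and Cox8c did not and are given by level. Cox7c, Ndufb4, Ndufb4b and Ndufs5-ps are annotated on probe sets that name several genes, and were left out.

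Mouse embryonic fibroblasts (MEFs) were forced towards a cardiomyocyte-like state with sets of cardiac transcription factors, and RNA from 28 cultures was hybridised to 28 single-channel arrays. In the group names G is GATA4, M is MEF2C, T is TBX5, N is NKX2.5, H is Hand2 and D is MYOCD. There were 3 arrays of untransduced MEFs (0F), 5 of GMT, 6 of NGMT, 3 each of HGMT and HNGMT, and 4 each of DMT and DMNT. All cultures were collected at day 21. Those given factors also carried rtTA and a lentiviral reporter that links the Troponin T promoter to GCaMP5 and zeocin resistance; they received doxycycline at 2 µg/mL and were selected with zeocin at 300 µg/mL for 7 days. The 0F cells, by their titles and protocol, had none of these, although another label calls all 28 samples zeocin-selected; titles were followed. A difference between a factor group and 0F therefore spans transduction, the reprogramming medium, doxycycline and selection as well as the factors. The selected cells are those in which the reporter was active, pooled in each culture.

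The respiratory chain moves electrons from NADH through complex I, and from succinate through complex II, to complex III, cytochrome c and complex IV, which reduces oxygen. The proton gradient made on the way drives the ATP synthase. Most subunits come from 1 widely used gene, but complex IV and the c ring of the ATP synthase have alternative isoforms, some of which are restricted to heart and skeletal muscle, brown fat, lung, testis or low oxygen. Heart muscle is rich in mitochondria and uses the muscle isoforms of complex IV.

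The deposited values are log2 signals. Their distributions fell into 3 series of arrays with different scaling: series 1 (8 arrays, array medians 6.682 to 6.754) held 0F, GMT and NGMT, series 2 (15 arrays, 6.864 to 6.948) held GMT, NGMT, HGMT, HNGMT and DMT, and series 3 (5 arrays, 7.64 to 7.653) held 1 DMT and 4 DMNT arrays. Each tested difference between groups stays inside 1 series, and levels are compared only within a gene. Where 0F is set beside all arrays with factors, values of the 3 series stand together as a description, since 0F is in series 1 alone. In series 3, up to 28.8% of all probe-set values were identical between a pair of arrays. In series 1 this was at most 5.93% and in series 2 1.81%, so the spread between the series 3 arrays is understated. Those arrays also enter the pooled spread of the fit, so standard errors in the other series may be too small. Cardiomyocyte markers separated the groups as labelled: 6 of 7 were higher in GMT than in 0F in series 1, against 34.2% of all genes. Their mean lay 2.88 to 3.12 above the array median in GMT and 0.15 to 0.29 below it in 0F (log2). Selection used the Troponin T promoter, so Tnnt2, 1 of the 7, is no independent check of the labels. Fibroblast markers lay well above the array median in every group, at a mean of 3.7 to 5.15. They were not constant: Col1a1, Col1a2, Col3a1, Pdgfra and Postn were called lower in GMT than in 0F, by 0.61 (Pdgfra) to 2.83 (Postn).

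One array stood apart for these genes. HNGMT replicate 1 had a median member signal 0.38 above the mean of the other HNGMT arrays, with 50 of 83 members higher by more than 0.3 and 0 lower by as much, while the median of all 12211 genes was 0.08 lower there (log2). No array outside HNGMT departed from its group by more than 0.15 in the members' median. Ndufa4 read 11.97 on that array and 10.56 and 10.54 on the others, and Cox7a2 read 11.35 against 10.47 and 10.45. All 4 complexes shared it, with medians of 0.36 for complex I, 0.5 for complex III, 0.38 for complex IV and 0.44 for complex V. Over all genes the standard deviation of this array's departures was 0.33, against 0.05 to 0.2 outside HNGMT. Because the fit pools the spread over groups, this array also entered comparisons without HNGMT: in HGMT minus GMT, 79 of 83 members had a larger standard error with it than without it. Counts are therefore given with all arrays and again with this array left out of the whole fit, an alternative chosen after seeing the data.

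**Figure D1:**
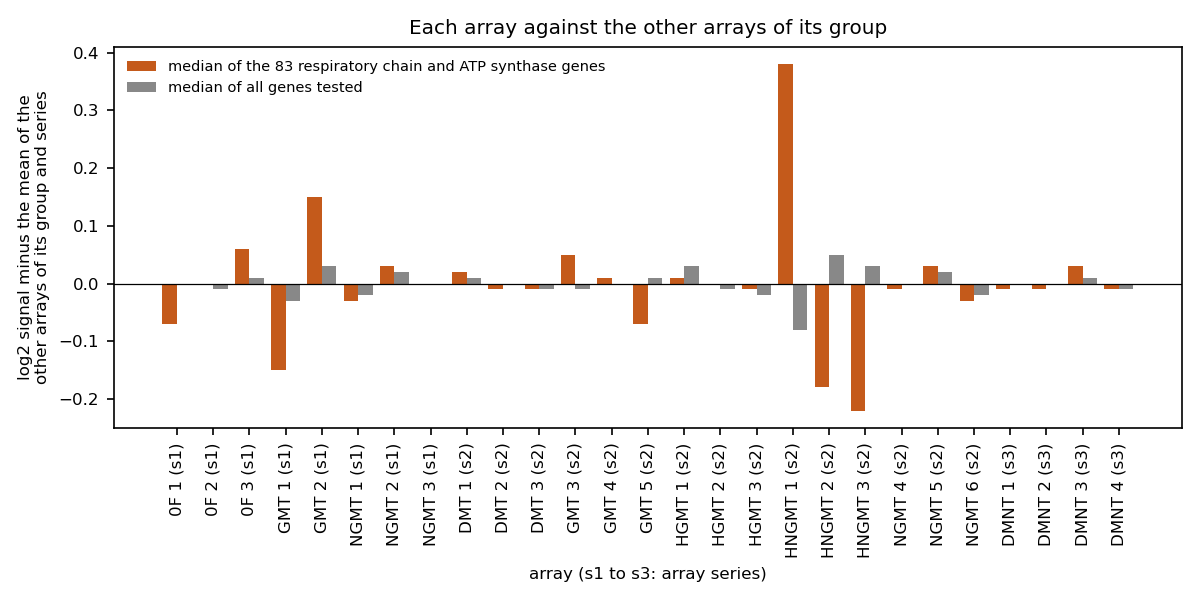
Bars give the median departure of each array from the mean of the other arrays of its group and series, in log2 signal, for the 83 members (orange) and for all 12211 genes tested (grey); DMT replicate 4 has no partner in its series. HNGMT replicate 1 is at 0.38 for the members, and no array outside HNGMT exceeds 0.15 in size.

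The largest differences in the family were in 4 genes, all alternative or accessory isoforms: Cox8b, Cox7a1, Cox6b2 and Ndufa4l2 were the members that passed the test with a log2 difference of at least 1 in any of the 9 comparisons. Against untransduced MEFs, Cox8b and Cox7a1, the complex IV isoforms of muscle and brown fat, fell, and Cox6b2, the testis isoform of subunit 6b, rose. The remaining 79 tested members differed from 0F by between -0.46 and 0.39 in GMT and by between -0.36 and 0.51 in NGMT.

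Cox8b, a small complex IV subunit used in heart, skeletal muscle and brown fat, read 10.47, 10.64 and 10.92 in 0F, 6.34 and 6.27 in GMT, and 6.35, 6.42 and 6.54 in NGMT of series 1 (log2 signal). The 0F arrays lay far above all arrays with factors. The difference was -4.37 ± 0.28 (SE, 2 GMT against 3 0F arrays) in GMT (limma adjusted p = 3.02e-12) and -4.24 ± 0.25 in NGMT (adjusted p = 6.39e-13). In GMT and NGMT it lay 0.15 to 0.43 below the array median, where signal and background are not separated here, so the signal ratios of 20.7 and 18.9 may understate the change. Cox8a, its widely used partner, read 11.83, 11.91 and 11.88 in 0F and 11.84 to 11.9 in GMT and NGMT, with overlapping groups.

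Cox7a1, the heart and skeletal muscle form of subunit 7a, read 8.84, 9.56 and 9.55 in 0F, 7.29 and 7.38 in GMT, and 7.19, 7.43 and 7.15 in NGMT. No array with factors reached the lowest 0F array. It was lower by 1.98 ± 0.13 in GMT (3.96-fold, adjusted p = 6.24e-12) and by 2.06 ± 0.12 in NGMT (4.17-fold, adjusted p = 3.73e-13). Its common partner Cox7a2 read 10.42 to 10.52 in 0F, 10.11 and 10.38 in GMT and 10.29 to 10.32 in NGMT. That gap did not pass the test with all arrays (-0.21 in GMT, adjusted p = 0.248) and did without HNGMT replicate 1 (adjusted p = 0.00106).

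Against 0F, fat and macrophage markers moved with Cox8b and Cox7a1, and most fibroblast markers were lower in GMT too. Of 9 markers of white and brown fat, 6 were tested and 5 fell in GMT and in NGMT against 0F, with medians over the 6 of -4.91 and -4.96; their mean over all 9 was 2.51 to 2.81 above the array median in 0F and 0.26 to 0.32 below it in GMT and NGMT. Adipoq, the fat hormone adiponectin, lay 4.42 to 4.66 above the array median in 0F and 1.24 to 1.5 below it in GMT and NGMT. Ucp1 and Elovl3, which define brown fat, were below the array median on all 28 arrays, and Cidea was above it on 1. All 5 macrophage markers were also lower. Adgre1 was above the array median on the 0F arrays alone and so was tested only because it is high there. C1qb was above it on 4 of the 28 arrays and likewise passed the filter only with the 0F arrays, so both falls are a description. For the 5 markers the mean lay 2.28 to 2.96 above the array median in 0F. It lay 0.32 to 0.48 below it in GMT and NGMT. The part of these cell types in the difference was not tested, and in a bulk sample fewer cells of a type and less RNA per cell cannot be told apart. On HNGMT replicate 1, Cox8b read 8.04 against 6.89 and 6.87 on the other HNGMT arrays, and the fat hormone gene Retn lay 2.28 above the array median against 0.45 and 0.09. Cox7a1 did not stand apart there, at 6.55 against 6.52 and 6.53.

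Cox6b2, a form of subunit 6b known from testis, read 6.66, 6.69 and 6.79 in 0F, 9.13 and 9.27 in GMT, and 9.48, 9.43 and 9.17 in NGMT. It was higher by 2.49 ± 0.17 in GMT (adjusted p = 4.93e-12) and by 2.65 ± 0.15 in NGMT (adjusted p = 1.84e-13). The signal ratios of 5.61 and 6.27 may understate the change in the same way, since 0F lay at the array median. Relative to each array's median it lay between -0.09 and 0.1 in 0F and between 2.39 and 3.71 on the 25 arrays with factors, with a median of 2.75. The common form, Cox6b1, read 11.33 to 11.42 in 0F and 11.3 to 11.46 in GMT and NGMT, with overlapping groups. With all arrays, Cox6b2 did not pass the test in any comparison between factor groups.

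**Figure D2:**
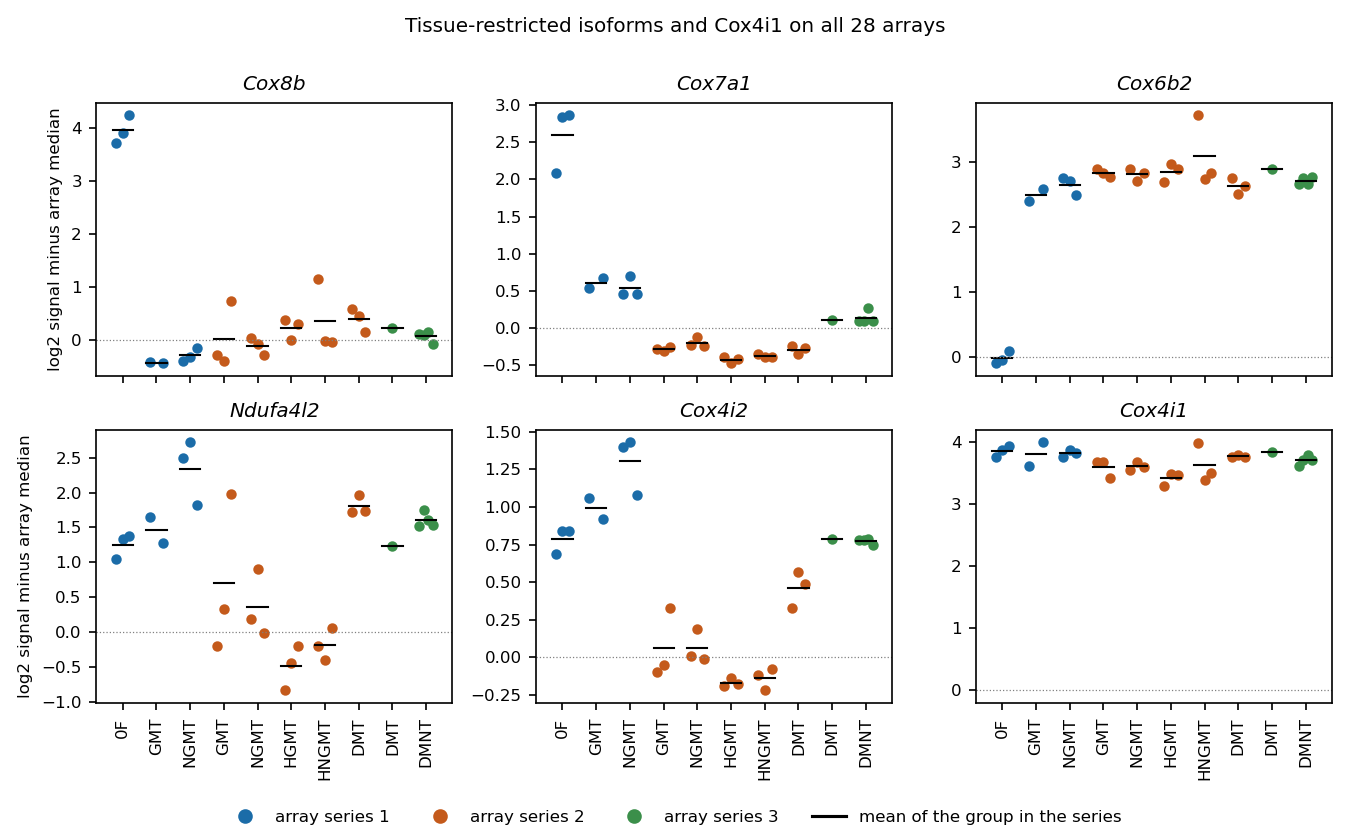
Log2 signal minus the array median (y axis) for 5 tissue-restricted isoforms and for Cox4i1 on all 28 arrays, by group and array series (colours); points are arrays and bars are means of a group within a series. Cox8b and Cox7a1 are high in 0F, Cox6b2 is near 0 in 0F and at least 2.39 elsewhere, and Ndufa4l2 and Cox4i2 vary between factor groups; series are scaled apart, so levels are best read within a colour.

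The start regions of the 3 genes that moved most are shown because the factors given to the cells bind DNA. Each window holds 300 bases around the RefSeq start (GRCm38.p6), most of them upstream, 5′ to 3′ on the gene's strand. Capitals mark matches on either strand: letters AGATAA for GATA factors, letters CAGCTG for an E-box, letters TATAAA for a TATA box, and the CCAAT box by its own name.
Cox6b2, chr7:4753045-4753344, minus strand: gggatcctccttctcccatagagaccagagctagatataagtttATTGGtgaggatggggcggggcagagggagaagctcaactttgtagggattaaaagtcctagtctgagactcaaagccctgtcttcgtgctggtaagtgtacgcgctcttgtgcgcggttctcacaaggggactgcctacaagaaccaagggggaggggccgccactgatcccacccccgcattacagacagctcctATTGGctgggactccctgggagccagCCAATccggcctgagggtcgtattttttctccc
Cox7a1, chr7:30183921-30184220, plus strand: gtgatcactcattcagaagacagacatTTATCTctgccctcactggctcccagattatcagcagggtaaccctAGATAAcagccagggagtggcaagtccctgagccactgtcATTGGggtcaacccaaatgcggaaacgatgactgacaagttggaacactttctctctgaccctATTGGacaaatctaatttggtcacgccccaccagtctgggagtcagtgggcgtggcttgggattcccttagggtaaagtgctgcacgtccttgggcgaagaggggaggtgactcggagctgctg
Cox8b, chr7:140900397-140900696, minus strand: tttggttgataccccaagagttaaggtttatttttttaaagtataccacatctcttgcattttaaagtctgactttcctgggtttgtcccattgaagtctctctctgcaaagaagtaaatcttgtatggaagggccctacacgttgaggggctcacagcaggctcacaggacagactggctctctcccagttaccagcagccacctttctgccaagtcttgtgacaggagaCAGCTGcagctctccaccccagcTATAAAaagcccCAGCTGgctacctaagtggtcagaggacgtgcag
Cox7a1 has 2 GATA matches, 1 on each strand, and Cox8b has 2 E-box matches on either side of the TATA match. GATA letters occur in 11.2% of all 32851 RefSeq windows of this length, E-box letters in 16.3%, TATA letters in 13.6% and CCAAT in 37.4%. T-box (AGGTGT) and MEF2 matches were not in these 3 windows.

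Of the 85 members, 70 have such windows (75 windows, since some genes have several starts; those on chromosome 18 were left out). Letters of the NRF1 site centre (CGCATGCG), a factor known for nuclear genes of the respiratory chain, were in 14.7% of member windows and 1.87% of all windows. Those of GABP (CCGGAAG) were in 21.3% and 8.86%, those of YY1 (AAGATGG) in 13.3% and 6.34%, and those of the ERR receptors (AAGGTCA) in 8.0% and 4.72%. GATA letters were in 6.67% of member windows, T-box letters in 13.3% against 13.7% of all windows, and MEF2 matches in 0 of 75 against 1.86%. These are matches of letters only.

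Outside the 4 genes with a large difference, differences from MEFs were small, and few members rose. The counts that follow cover all 83 tested members, those 4 genes included. In GMT minus 0F, 20 of 83 members fell (24.1%) and 4 rose (4.82%); of all 12211 genes tested, 22.3% fell and 34.2% rose. The 20 include Ndufaf6, which was above the array median on the 3 arrays of 0F alone and so was tested only because it is high there. The share that fell was thus close to the background, and the share that rose was below it. Without HNGMT replicate 1, 30 fell (36.1%, against 25.0% of all genes) and 7 rose (8.43%, against 38.4%). The members' median difference was -0.09 and that of all genes 0.05. With GMT replicate 1 left out, which leaves 1 GMT array in this series, the members' median was -0.01.

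In NGMT minus 0F, 22 members fell (26.5%, again with Ndufaf6) and 5 rose (6.02%), against 23.3% and 34.9% of all genes. With HNGMT replicate 1 left out, 36 fell (43.4%, against 25.8%) and 9 rose (10.8%, against 39.0%). The members' median was -0.08. Both comparisons use the same 3 arrays of 0F, so their values stand side by side and are not independent.

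Complex I takes electrons from NADH through the flavin subunit Ndufv1 and a chain of iron-sulphur clusters, some of them held by Ndufs1. Ndufs1 read 9.72, 9.9 and 9.92 in 0F, 9.5 and 9.6 in GMT, and 9.5, 9.55 and 9.57 in NGMT, with all 0F arrays highest. It fell by 0.3 ± 0.06 in GMT (adjusted p = 0.000266) and by 0.31 ± 0.06 in NGMT (adjusted p = 5.63e-05). Ndufv1 read 10.47, 10.65 and 10.71 in 0F, 10.36 and 10.51 in GMT and 10.32 to 10.46 in NGMT; it fell by 0.17 and 0.22, and 1 GMT array overlapped 0F. Over the 36 subunits counted under complex I by name, 9 fell and 0 rose in GMT, and 10 fell and 1 rose in NGMT. The medians were -0.12 and -0.11, and the 1 rise was that of Ndufa4l2. The shares that fell, 25.0% and 27.8%, were near the 22.3% and 23.3% of all genes. Ndufs7 and Ndufs8, which also hold iron-sulphur clusters, gave no call with all arrays in either comparison.

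Ndufs4, an accessory subunit of the electron-entry arm, read 11.08, 11.11 and 11.1 in 0F, 10.54 and 10.73 in GMT and 10.72, 10.86 and 10.82 in NGMT, with no overlap. It fell by 0.46 ± 0.16 in GMT (adjusted p = 0.0176), a call that was lost without GMT replicate 1 (-0.36, adjusted p = 0.152). In NGMT the difference was -0.3 (adjusted p = 0.0813 with all arrays and 0.000106 without HNGMT replicate 1). Ndufv3, a small subunit of the flavin arm, read 9.65 to 9.68 in 0F, 9.41 and 9.33 in GMT and 9.41 to 9.42 in NGMT, and fell by 0.3 and 0.26. Ndufb5, a membrane-arm subunit, fell in NGMT by 0.36 ± 0.14 (adjusted p = 0.0327).

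Among the 7 assembly factors of complex I, Ndufaf3 rose in both. Ndufaf3 read 9.38, 9.26 and 9.34 in 0F, 9.57 and 9.86 in GMT and 9.61, 9.73 and 9.57 in NGMT. All arrays with factors were above 0F, by 0.39 ± 0.08 (adjusted p = 0.000112) and 0.31 ± 0.07 (adjusted p = 0.00037). Ndufaf6 read 6.8, 6.86 and 6.69 in 0F, 6.33 and 6.57 in GMT and 6.49 to 6.57 in NGMT, differences of -0.34 and -0.25 that are given as a description because of how it passed the filter. The other members of this group gave no call in either comparison with all arrays.

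In complex III, 4 of the 8 Uqcr subunits fell in GMT (50.0%, against 22.3% of all genes) and 3 in NGMT (37.5%, against 23.3%). Of these subunits 0 rose (against 34.2% and 34.9%). Uqcrfs1, the Rieske iron-sulphur protein that passes electrons to cytochrome c1, read 8.18, 8.31 and 8.5 in 0F, 7.96 and 8.14 in GMT, and 8.08, 8.12 and 8.04 in NGMT. It fell by 0.28 ± 0.08 (adjusted p = 0.00666) and 0.25 ± 0.07 (adjusted p = 0.00621). The core protein Uqcrc2 fell by 0.2 and 0.22, and Uqcrb, which binds near the quinone site, by 0.29 and 0.25; Uqcrb read 12.32 on each 0F array and 12.0 to 12.13 on the others. Uqcrc1, the other core protein, read 10.74 to 10.92 in 0F and 10.65 and 10.77 in GMT. Its fall of 0.12 in GMT lay at the threshold (adjusted p = 0.0494).

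In complex IV outside the isoforms above, Cox5b, a subunit of the nuclear-encoded shell, fell by 0.17 ± 0.05 in GMT and 0.19 ± 0.04 in NGMT. Its levels were 11.85, 11.93 and 11.96 in 0F, 11.69 and 11.8 in GMT and 11.7, 11.71 and 11.76 in NGMT. Cox5a read 9.64, 9.79 and 9.86 in 0F and 9.86 and 10.15 in GMT, a rise of 0.24 ± 0.09 (adjusted p = 0.0282) that was not kept without GMT replicate 2 (0.1, adjusted p = 0.519) or without 0F replicate 1 (0.18, adjusted p = 0.131). In NGMT, Cox5a read 9.85 to 9.86. Cox6a2, the heart and muscle form of subunit 6a, was lower in NGMT (7.23, 7.11 and 7.29) than in 0F (7.36, 7.41 and 7.49) by 0.21 ± 0.07 (adjusted p = 0.00957), close to the array median in both. Cox4i1, the common form of subunit 4, read 10.51, 10.6 and 10.61 in 0F and 10.35 to 10.68 in GMT and NGMT.

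In the ATP synthase, 3 of 17 subunits fell in GMT (17.6%, against 22.3% of all genes) and 4 in NGMT (23.5%, against 23.3%), and 1 rose in each. Atp5b, the catalytic beta subunit, read 12.74, 12.76 and 12.79 in 0F, 12.66 on both GMT arrays, and 12.59, 12.64 and 12.61 in NGMT. All arrays with factors were lower, by 0.11 ± 0.03 in GMT (adjusted p = 0.00394) and 0.15 ± 0.03 in NGMT (adjusted p = 2.9e-05). Atp5a1 (alpha) fell by 0.18 and 0.2, and Atp5c1 (gamma, the rotor shaft) by 0.23 and 0.24. Atp5g1, Atp5g2 and Atp5g3 encode the same mature c subunit from separate genes. Atp5g2 read 11.63, 11.56 and 11.67 in 0F, 11.76 and 11.89 in GMT and 11.7 to 11.81 in NGMT, a rise of 0.21 ± 0.05 and 0.14 ± 0.05 (adjusted p = 0.0019 and 0.0118). Atp5g3 read 11.32, 11.33 and 11.5 in 0F and 11.1, 11.16 and 11.1 in NGMT, a fall of 0.27 ± 0.09 (adjusted p = 0.0117). Atp5g1 differed by 0.17 and 0.16, without a call with all arrays (adjusted p = 0.092 and 0.0766).

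**Figure D3:**
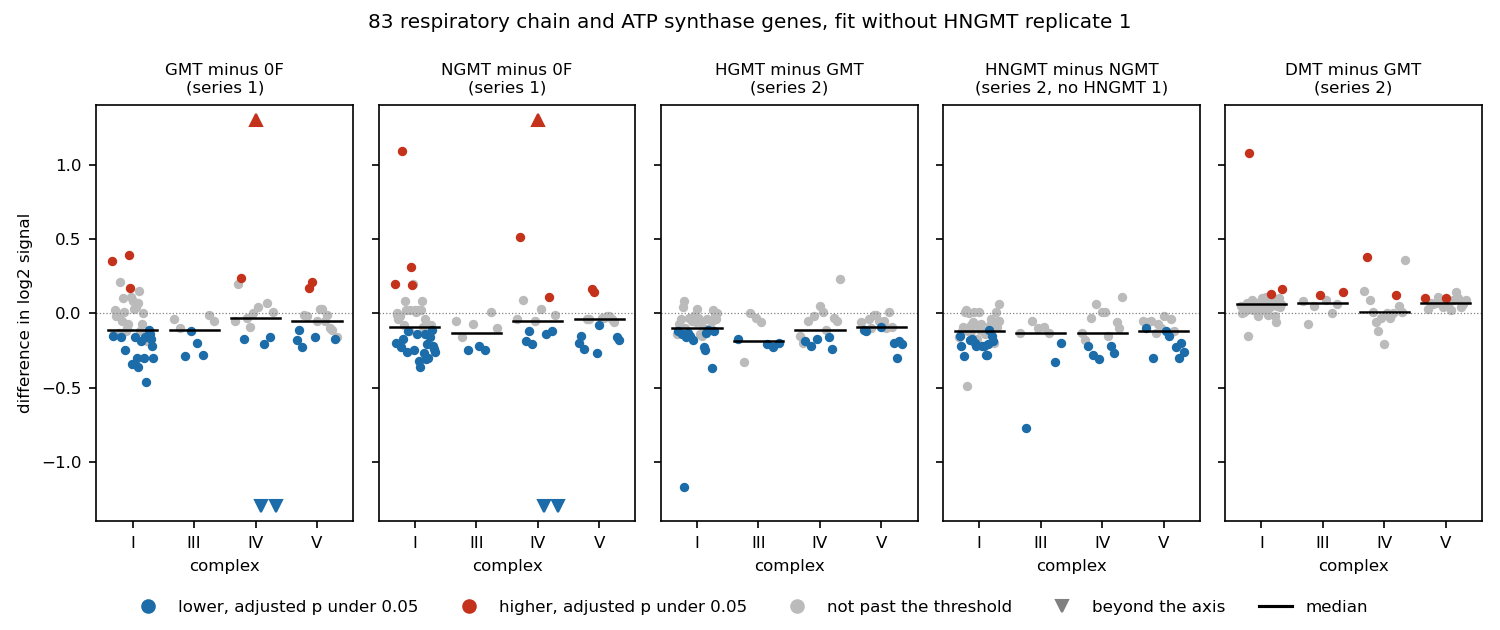
Difference in log2 signal (y axis) of the 83 tested members by complex in 5 comparisons, from the fit without HNGMT replicate 1; each point is a gene, black bars are medians and triangles lie beyond the axis. Blue genes were lower and red genes higher at adjusted p under 0.05: 30 and 7 in GMT minus 0F, 36 and 9 in NGMT minus 0F, 30 and 0 in HGMT minus GMT, 31 and 0 in HNGMT minus NGMT, and 0 and 9 in DMT minus GMT.

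In HGMT cells, with Hand2 added to GMT, members of all 4 complexes were slightly lower than in GMT, and most of these falls were called only when HNGMT replicate 1 was left out. In HNGMT against NGMT, the family median was 0.0 with all arrays and -0.12 without that array. In HGMT minus GMT, 7 of 83 members fell (8.43%) and 0 rose with all arrays, against 12.7% and 11.2% of all genes. Without HNGMT replicate 1, which belongs to neither group and enters only through the pooled spread, 30 fell (36.1%, against 18.3% of all genes) and 0 rose (against 15.2%). The members' median difference was -0.1 in either fit and that of all genes -0.01. Of the 83 differences, 75 were below 0. The count with all arrays was 3 without GMT replicate 3, 4 without GMT replicate 4, 2 without HGMT replicate 2 and 4 without HGMT replicate 3.

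In HNGMT minus NGMT, 4 members fell (4.82%) and 1 rose (1.2%) with all arrays, against 20.9% and 7.67% of all genes. Without HNGMT replicate 1, 31 fell (37.3%, against 16.8% of all genes) and 0 rose (against 8.69%), and the median moved from 0.0 to -0.12. The direction of the family here rests on which HNGMT arrays are used. Without HNGMT replicate 3, 13 members rose and 4 fell, and without HNGMT replicate 2, 8 rose and 4 fell. The share of all genes in these refits is not given, so these counts have no background beside them. Over all genes HNGMT replicate 1 departed too, with 11.3% higher by more than 0.3 and 19.0% lower by as much. Without an array of NGMT (replicates 4, 5 or 6 in turn), 0 rose and 2 fell.

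The Hand2 comparisons use different arrays of both groups, though 1 pooled spread. Without HNGMT replicate 1, 20 members fell in both, which is 66.7% of the 30 and 64.5% of the 31. Over all genes the same overlap was 66.9% and 72.7%, so it was no larger among the members. Of the 83 differences, 71 were below 0 in both. With all arrays 1 gene, Atp5b, fell in both, which is 14.3% of the 7 and 25.0% of the 4, against 75.9% and 46.2% over all genes. The test of whether the NKX2.5 difference itself differed with and without Hand2 called 0 members in limma (1 at an unadjusted p under 0.05 with all arrays, 2 without HNGMT replicate 1). It called 0 of all 12211 genes in either fit, so this is no result about the members in particular.

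**Figure D4:**
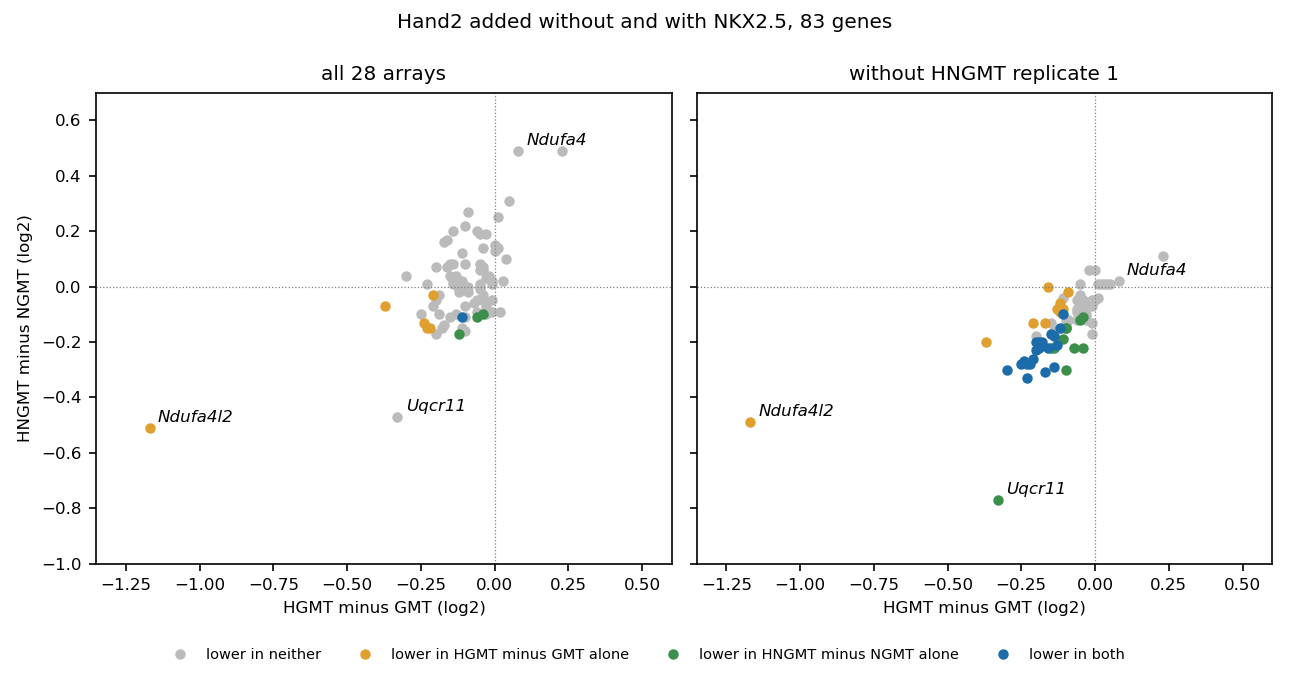
Each point is 1 of the 83 members; the x axis is HGMT minus GMT and the y axis HNGMT minus NGMT in log2 signal, with all arrays (left) and without HNGMT replicate 1 (right). Most points lie below 0 on the x axis in both panels (75 of 83), and those below 0 on both axes number 40 on the left and 71 on the right.

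Atp5b fell in either fit: it read 12.84, 12.8 and 12.75 in GMT and 12.69, 12.68 and 12.68 in HGMT, without overlap, and 12.79, 12.82 and 12.84 in NGMT against 12.67, 12.76 and 12.68 in HNGMT. The differences were -0.11 ± 0.03 in each (adjusted p = 0.00385 and 0.0032). Cox7a2l, which joins complexes III and IV in supercomplexes, read 9.11, 9.08 and 9.16 in GMT and 8.86, 8.87 and 8.88 in HGMT, a fall of 0.24 ± 0.08 (adjusted p = 0.0212). It read 9.11, 9.12 and 9.08 in NGMT, 8.78 and 8.88 on HNGMT replicates 2 and 3, and 9.27 on replicate 1. Its difference there was -0.13 (adjusted p = 0.22) with that array and -0.27 (adjusted p = 0.000184) without it.

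Ndufs5, an accessory subunit of complex I, read 7.99, 7.93 and 8.14 in GMT and 7.77, 7.47 and 7.73 in HGMT, lower by 0.37 ± 0.1 (adjusted p = 0.0118). The call was lost without GMT replicate 5 (-0.31, adjusted p = 0.0583) or HGMT replicate 2 (-0.27, adjusted p = 0.0888). Cox6a1, the common form of subunit 6a, fell by 0.22 (11.22, 11.17 and 11.04 in GMT, 10.9 to 10.93 in HGMT), Ndufb7, a membrane-arm subunit, by 0.23, and Uqcrfs1 by 0.21, from 8.33, 8.3 and 8.34 to 8.12, 8.11 and 8.12. Uqcrh, the hinge protein that binds cytochrome c1, read 11.35, 11.36 and 11.26 in GMT against 11.15, 11.06 and 11.1 in HGMT. It read 11.32, 11.3 and 11.33 in NGMT against 10.96 and 11.02 on HNGMT replicates 2 and 3 and 12.0 on replicate 1. Its differences without that array were -0.23 (adjusted p = 0.000244) and -0.33 (adjusted p = 2.27e-05).

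Uqcr11, the smallest complex III subunit, varied widely between arrays of 1 group. It read 10.54, 10.2 and 9.97 in GMT and 10.4, 9.64 and 9.68 in HGMT, and 10.3, 10.41 and 9.9 in NGMT against 10.33, 9.41 and 9.45 in HNGMT. Replicate 1 was the highest array in both Hand2 groups. It gave no call with all arrays (adjusted p = 0.0906 in HNGMT minus NGMT) and a fall of 0.77 ± 0.19 without HNGMT replicate 1 (adjusted p = 0.00371).

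With all arrays, the other calls in HNGMT minus NGMT were falls of Ndufa10 (0.17), Atp5a1 (0.11) and Atp5d (0.1), and a rise of Ndufv3 (0.15). Ndufa10, an accessory subunit of complex I, was also lower without HNGMT replicate 1, by 0.15 (adjusted p = 0.0272), while Atp5a1, Atp5d, the delta subunit, and Ndufv3 gave no call then.

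Other markers moved beside the Hand2 differences. The mean of the 7 cardiomyocyte markers lay 2.49 to 2.69 above the array median in GMT and 1.77 to 1.85 in HGMT, and 2.84 to 3.02 in NGMT and 1.87 to 2.13 in HNGMT; 4 of 7 fell and 1 rose in HGMT minus GMT. Of the 6 tested fat markers 5 rose in HGMT minus GMT, and the mean of all 9 lay at 0.09 to 0.22 in GMT and 0.53 to 0.78 in HGMT. Cox8b and Cox7a1 gave no call in that comparison, at differences of 0.23 and -0.11. The mean of the 5 macrophage markers ranged from 0.01 to 1.29 over the HNGMT arrays, with a range of -0.23 to 0.45 in NGMT. Their part in the members' differences was not tested.

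Ndufa4l2 and Cox4i2, isoforms known from low oxygen and from lung and vessel walls, varied between factor groups. Ndufa4l2 read 7.79, 8.06 and 8.06 in 0F, 8.4 and 7.97 in GMT and 9.22, 9.45 and 8.51 in NGMT of series 1, where NGMT was higher than 0F by 1.09 ± 0.35 (adjusted p = 0.0108). That call was lost without NGMT replicate 2 (0.89, adjusted p = 0.0607). In series 2 it read 6.67, 7.21 and 8.9 in GMT, 7.05, 7.78 and 6.87 in NGMT, 6.1, 6.45 and 6.7 in HGMT, 6.68, 6.51 and 6.97 in HNGMT and 8.59, 8.83 and 8.6 in DMT. GMT replicate 5 stood far above the other GMT arrays of its series and reached the DMT level.

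Ndufa4l2 was lower in HGMT than in GMT by 1.17 ± 0.35 (adjusted p = 0.0172), but by 0.52 (adjusted p = 0.146) without GMT replicate 5 and by 1.02 (adjusted p = 0.0774) without HGMT replicate 1. It was higher in DMT than in GMT by 1.08 ± 0.35 (adjusted p = 0.0345), and by 1.74 (adjusted p = 1.62e-05) without GMT replicate 5. Leaving out any other array of the 2 groups ended the call (differences of 0.62 to 1.13, adjusted p 0.0638 to 0.28). The difference NGMT minus GMT was 0.88 in series 1 and -0.36 in series 2, and the test between series gave -1.24 ± 0.53 (adjusted p = 0.571). RefSeq has this gene overlapping the end of Shmt2, so signal of the neighbour cannot be told apart by symbol. Ndufa4, its common partner, read 10.62, 10.49 and 10.16 in GMT and 10.24, 10.29 and 10.28 in DMT, with overlap.

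Cox4i2, the oxygen-responsive form of subunit 4, read 7.44, 7.58 and 7.52 in 0F and 8.13, 8.16 and 7.77 in NGMT of series 1. The groups did not overlap, and NGMT was higher by 0.51 ± 0.1 (adjusted p = 0.000164). In series 2 it read 6.77, 6.83 and 7.24 in GMT and 7.2, 7.44 and 7.36 in DMT, a rise of 0.38 ± 0.1 (adjusted p = 0.00915), with GMT replicate 5 inside the DMT range. The call in DMT was not kept without DMT replicate 2 (0.33, adjusted p = 0.0593), GMT replicate 3 (0.3, adjusted p = 0.0774) or GMT replicate 4 (0.32, adjusted p = 0.0647). All 4 smooth muscle markers rose in DMT minus GMT, with a median of 3.52, their mean lying 4.67 to 4.91 above the array median in DMT and 1.24 to 1.37 in GMT; the part of smooth muscle-like cells was not tested.

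In DMT minus GMT, where MYOCD takes the place of GATA4, these were the calls: 2 of 83 members rose (2.41%) and 0 fell, against 9.11% and 8.15% of all genes. With that HNGMT array left out, 9 rose (10.8%, against 12.8%) and 0 fell (against 10.9%), a share of rises near the background. The 7 further members rose by 0.1 to 0.16, among them Ndufv3, Ndufc1 and Uqcrc1. The median over the family was 0.06. With all arrays in the rest of the fit, 1 member rose without DMT replicate 1, DMT replicate 3 or GMT replicate 3, 0 rose without DMT replicate 2 or GMT replicate 4, and 3 rose without GMT replicate 5.

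With all arrays, adding NKX2.5 gave no call among the members. In NGMT minus GMT 0 of 83 passed in series 1 (limma, 2 at an unadjusted p under 0.05), where 4.7% of all genes were called in either direction; without NGMT replicate 3, 1 member rose. It gave 0 in series 2 (0 at an unadjusted p under 0.05), where 0.0328% were. In DMNT minus DMT, 0 passed (1 at an unadjusted p under 0.05), against 0.0655% of all genes; this sets 4 arrays against 1, which is assumed to vary like the other groups, so it says little about NKX2.5 there. In HNGMT minus HGMT, 0 passed, against 0.491% of all genes, but 23 were under an unadjusted p of 0.05 and the median was 0.12. Leaving out HNGMT replicate 1, these were 9 and -0.01, and 0 passed. Without HNGMT replicate 3, 29 rose and 1 fell, and without HNGMT replicate 2, 19 rose and 0 fell. The share of all genes in these refits is not given. For NGMT minus GMT, the 95% interval of a member's difference reached a median of 0.19 to either side in series 1 and 0.17 in series 2, and 0.23 in series 3 for DMNT minus DMT. Without HNGMT replicate 1 these were 0.12, 0.1 and 0.14.

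Cox7b2 and Cox8c, testis isoforms, were not tested. Cox7b2 read 4.75 to 4.95 in series 1 and 2 and 5.35 to 5.4 in series 3, and Cox8c 5.9 to 6.38 and 7.45 to 7.71; Cox7b2 lay below the array median on all 28 arrays, and Cox8c on all but DMNT replicate 4. For the 17 members with several probe sets, the sets of 1 gene differed by at most 0.17 in log2 difference over 4 comparisons (Ndufa11), and in 0 cases pointed in opposite directions by more than 0.05 each. Several of these genes have processed copies in the genome, and the probe sets cannot separate their transcripts.

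The other genes of oxidative metabolism, from lists outside the name stems, moved as follows. One list held 6 genes: Sdha, Sdhb, Sdhc and Sdhd of complex II, Cycs for cytochrome c, and Cyc1 for cytochrome c1. Cyc1 belongs to complex III but carries none of the name stems, so it is not among the complex III members above. Of the 6, 4 fell in GMT (66.7%, against 22.3% of all genes) and 5 in NGMT (83.3%, against 23.3%). The medians were -0.35 and -0.33. Sdha, the flavin subunit of succinate dehydrogenase, fell by 0.48 and 0.49, and Cycs, cytochrome c, by 0.47 and 0.54. In the Hand2 comparisons 3 fell in HGMT minus GMT (50.0%, against 12.7% of all genes) and 4 in HNGMT minus NGMT (66.7%, against 20.9%) with all arrays, and Sdhb was lower by 0.21 and 0.22.

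Assembly factors outside the name stems went both ways against 0F: of 23 tested, 5 rose (21.7%, against 34.2% of all genes) and 6 fell (26.1%, against 22.3%) in GMT. Cox17, a copper chaperone for complex IV, rose by 0.77, and Atpaf2, which helps build the ATP synthase head, fell by 0.7. In HGMT minus GMT, 7 fell (30.4%, against 12.7%) and 0 rose, and in HNGMT minus NGMT 9 fell (39.1%, against 20.9%) and 1 rose. Uqcc2, a complex III assembly factor, was lower by 0.37 and 0.36, and Sco1, a copper chaperone of complex IV, by 0.2 and 0.27.

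Of 17 regulators of mitochondrial biogenesis, 3 rose and 3 fell in GMT minus 0F (17.6% each, against 34.2% and 22.3% of all genes). Ppargc1a, the PGC-1alpha coactivator, fell by 1.08 in GMT and 1.01 in NGMT; it lay 0.82 to 0.97 above the array median in 0F and between -0.19 and 0.0 in GMT and NGMT. Tfb1m, a mitochondrial ribosomal RNA methyltransferase, fell by 0.57 and 0.5, and Polrmt, the mitochondrial RNA polymerase, rose by 0.41 and 0.44. In HGMT minus GMT 1 of the 17 fell (Esrrg, by 0.16). Among 16 other mitochondrial proteins, 8 rose (50.0%, against 34.2% of all genes) and 3 fell (18.8%, against 22.3%) in GMT minus 0F. Ckmt1, a mitochondrial creatine kinase, rose by 0.38 and Vdac2, an outer membrane channel, by 0.36, while Cs, citrate synthase, fell by 0.65. With Hand2, 7 fell in HGMT minus GMT (43.8%, against 12.7%) and 9 in HNGMT minus NGMT (56.2%, against 20.9%) and 0 rose; the import receptor Tomm20 was lower by 0.36 and 0.31, and the chaperone Hspa9 by 0.34 and 0.28.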

How the data were processed

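The deposited table holds 1 log2 signal per probe set and array (35556 probe sets); per the submitters' processing notes MAS5 was used, and no software version or further normalization step is stated in the labels. Probe sets were named from the platform annotation: 21789 have 1 symbol, 1621 several and 12146 none. Per gene the probe set of highest mean was kept. All 85 members matched a RefSeq gene, with 0 symbols changed. Array series were found by clustering the sorted values (largest distance within a series 0.0486, smallest between 0.1354). The values have no counts, so the number of arrays limits the precision.

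Differences were fitted with limma 3.58.1 (R 4.3.3) on the deposited log2 values, with a mean for each group in each series, a pooled spread over all 28 arrays, eBayes with trend and two-sided Benjamini-Hochberg adjustment over the 12211 genes above the array median on at least 3 arrays; a call is an adjusted p under 0.05. Interactions were contrasts of the same fit. On simulated data for GMT minus 0F (over 12211 genes), 84% of genes changed by 0.5 and 100% of those changed by 1 were recovered. Of the simulated calls, 6.1% were false. Smaller changes, the size of most member differences, were not simulated. Noise was drawn independently per array, with no departure shared by many genes such as that of HNGMT replicate 1. The labels call the samples of a group independent biological replicates; p-values measure only the spread between these cultures.

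The members and lists were chosen with earlier results of these data known. Named genes are the tissue-restricted isoforms with their partners, core catalytic or structural subunits, the 4 largest called rises and falls in each comparison, and members called at a log2 difference of at least 1; other members and list genes (such as Uqcrh, Uqcr11 and the pathway examples) were named after their values were seen. Alternatives were array centring, quantile normalization within series, additive series terms, mean over probe sets, no filter, eBayes without trend, a replicate block, each array left out, and, added after seeing the data, leaving out HNGMT replicate 1 or series 3. Promoter windows are from RefSeq (GRCm38.p6).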

Additional observations from a re-analysis of the deposited data

Results flagged for a closer look

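In DMNT of series 3, the group with 4 arrays in 1 series, 36 named members were examined, and in 9 of them 1 array lay apart from the others. The gap to the nearest array divided by the range was 1.0 for Atp5a1 (12.38 to 12.44), Atp5g2 (12.62 to 12.63), Cox4i2 (8.4 to 8.43), Cox6b1 (12.17 to 12.25), Cox7a1 (7.75 to 7.91), Cox7b (12.85 to 12.85), Ndufa4 (10.75 to 10.77) and Ndufb7 (9.86 to 9.87), where the other 3 arrays held identical values. It was 0.877 for Ndufb5 (11.09 to 11.24). Each value is above Dixon's critical value for 4 arrays. Where the other 3 arrays are identical, the ratio is 1.0 whatever the size of the gap, so it passes by construction. The usual chance rate of about 1 of 20 groups does not apply to values with such ties. Between 6 and 20 of the 85 members had identical values in a pair of series 3 arrays, against at most 5 in series 1 and 3 in series 2.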

How the results depend on the processing

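Without HNGMT replicate 1 the counts of called members were 37 for GMT minus 0F (24 with all arrays), 45 for NGMT minus 0F (27), 30 for HGMT minus GMT (7) and 9 for DMT minus GMT (2). With additive series terms HGMT minus GMT gave 13 and DMT minus GMT 4. Without series 3 HGMT minus GMT gave 4, HNGMT minus NGMT 2 and DMT minus GMT 1. Arrays of series 3, whose spread is understated, enter the pooled spread of every comparison, also in the counts without HNGMT replicate 1. No fit left out that array and series 3 together. For HNGMT minus NGMT (5), quantile normalization and eBayes without trend each gave 3, and no filter gave 2. The cause was not tested.

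Same-number correlations ran from -0.138 to 0.408 in series 1, with 3 of 7 over 0.1, and from -0.257 to 0.3 in series 2, with 4 of 14. Pairs of different number reached 0.313 in series 1 and 0.411 in series 2. Some groups of series 2, such as NGMT and HNGMT, share no replicate number. The numbers therefore cannot show whether cultures were paired. With the replicate block HGMT minus GMT gave 1 and HNGMT minus NGMT 0, and the other comparisons stayed within 1.5 times.

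Leaving out 1 array at a time gave 13 to 25 for GMT minus 0F, 22 to 30 for NGMT minus 0F, 0 to 1 for NGMT minus GMT in series 1, 2 to 7 for HGMT minus GMT, 2 to 31 for HNGMT minus NGMT, 0 to 30 for HNGMT minus HGMT and 0 to 3 for DMT minus GMT. Of the 65 called differences of single members, 0 changed sign under any alternative. They were picked by their call on these same arrays, so a change of sign was unlikely beforehand. Over the settings other than leaving out 1 array, 534 of 580 refits kept the call, and 278 of 366 did when leaving out 1 array. With the replicate block 47 of the 65 calls were kept and 18 were lost. Counts from leaving out 1 array stand without the share of all genes.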
